A study of Mus musculus with 10 samples.

Results

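The genes described here encode the voltage-gated sodium channels, the voltage-gated calcium channels and the hyperpolarization-activated (HCN) channels of the mouse, with their auxiliary subunits. They were found by symbol, as every probe set annotated to exactly 1 gene whose symbol starts with Scn plus a number and a or b, with Cacna or Cacnb, or with Hcn plus a number. A gene with several such probe sets is represented by the one with the highest mean signal over the 10 arrays. The rule found 31 genes among the 19938 genes with such a probe set, of which 21 encode pore-forming and 10 encode auxiliary subunits. The rule itself uses no measured value except the mean signal, and other members of these families were not analysed here.

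RNA came from the whole hippocampus, right and left, of 16-week-old male mice. The 5 Dp1Rhr mice carry a duplication of the Cbr1 to Fam3b interval of mouse chromosome 16, so that its genes are present in 3 copies. The 5 control mice are wild-type animals from the shared Dp5Yah and Dp1Rhr cross. The labels place both groups on C57BL/6N and call the mice of a group biological replicates. Each RNA was hybridised to 1 Affymetrix Mouse Gene 1.0 ST array, and all values below are log2 signals from robust multi-array averaging (RMA), so that a difference of means is a log2 fold change of Dp1Rhr over control.

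A voltage-gated channel opens a pore through the membrane when the voltage across it changes. Sodium channels carry the rising phase of the action potential, calcium channels turn depolarization into transmitter release and intracellular signalling, and HCN channels open on hyperpolarization and set the resting potential and rhythm of neurons. The pore-forming alpha subunit decides what passes, while the auxiliary beta and alpha2delta subunits bring the pore to the membrane and tune its gating.

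The promoters of the genes that the results turn on were read from RefSeq (GRCm38.p6), as the 250 bases before an annotated start, and 24 of the 31 genes matched, with 33 promoters among 32851 in all. Shown are those of Scn1a, the gene with the smallest p-value, of Cacna2d1, measured by 2 probe sets with the same direction, and of Cacna2d2, the gene with the highest fold change. Capitals mark GC boxes, the letters GGGCGG on either strand (CCGCCC when read on the strand printed), some of which abut or overlap. The Scn1a promoter is at chr2:66440838-66441087 on the minus strand. The Cacna2d1 promoter is at chr5:15934441-15934690 and the Cacna2d2 promoter at chr9:107399630-107399879, both on the plus strand. An annotated start need not be the outer end of a gene. The Cacna2d1 stretch lies inside the span used for the gene's length, which starts at 15934264. Part of the Cacna2d2 stretch lies inside its gene's span, which starts at 107399733.
Scn1a: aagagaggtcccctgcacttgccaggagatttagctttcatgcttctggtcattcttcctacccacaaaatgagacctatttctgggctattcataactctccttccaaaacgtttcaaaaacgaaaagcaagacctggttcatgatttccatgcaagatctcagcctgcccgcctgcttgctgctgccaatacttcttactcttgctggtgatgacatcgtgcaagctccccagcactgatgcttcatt
Cacna2d1: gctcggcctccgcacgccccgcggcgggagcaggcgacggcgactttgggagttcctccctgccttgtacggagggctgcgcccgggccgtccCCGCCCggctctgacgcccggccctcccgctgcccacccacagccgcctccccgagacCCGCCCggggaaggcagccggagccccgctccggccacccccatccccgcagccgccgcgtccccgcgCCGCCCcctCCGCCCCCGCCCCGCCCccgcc
Cacna2d2: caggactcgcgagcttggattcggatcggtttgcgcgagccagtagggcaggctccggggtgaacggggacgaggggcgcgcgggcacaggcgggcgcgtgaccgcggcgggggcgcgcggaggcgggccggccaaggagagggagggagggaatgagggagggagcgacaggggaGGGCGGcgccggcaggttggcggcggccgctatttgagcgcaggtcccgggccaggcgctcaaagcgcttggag
The Scn1a stretch holds 46.8% G or C and 0 GC boxes, the Cacna2d1 stretch 82.4% and 6, and the Cacna2d2 stretch 74.4% and 1. Over the 33 promoters the median was 56% G or C, against 52.4% over all 32851. A GC box was present in 14 of the 33 (42.4%), against 32.7% of all. The TATA box letters TATAAA were in 2 of the 33 (6.06%) against 12.4% of all, and neither the cyclic AMP element TGACGTCA (1.55% of all) nor TTCAGCACC, the left part of the RE1 site (0.301% of all), was in any of the 33, both strands searched. These matches are a description of letters only.

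None of the 31 channel genes passed limma's moderated test after Benjamini-Hochberg adjustment over all 19938 genes, at a threshold of 0.05. Over all genes 160 passed, 0.802% of those tested, of which 125 rose and 35 fell. The smallest adjusted p-value among the channel genes was 0.0707, for Scn1a. At an unadjusted p-value under 0.05, 10 of the 31 were lower in Dp1Rhr (32.3%), against 6.44% of all genes, and 2 were higher (6.45%), against 8.55% of all genes. The mean was below that of the controls for 22 of the 31 and above it for 9, and the median log2 fold change of the 31 was -0.07, against 0.00 over all genes. The fold changes ran from -0.22 (Scn1a) to 0.25 (Cacna2d2), and the 95% intervals of all 31 lay between -0.39 (Scn4b) and 0.41 (Cacna2d2). In 4 genes, Cacna1g, Scn8a, Cacna2d1 and Cacna2d3 (12.9% of the 31), every Dp1Rhr array was below every control array, against 1.70% of all genes. Such a separation was more frequent among bright and long genes. It was found in 263 of the 7976 genes with a mean signal above the 60th percentile. Among the 1429 of these longer than 100 kb it was found in 111, and in 3 of the 13 channel genes among them. In 0 of the 31 was every Dp1Rhr array above every control array, against 1.82% of all genes. In whole tissue, fewer cells of a type and less RNA per cell cannot be told apart.

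**Figure D1:**
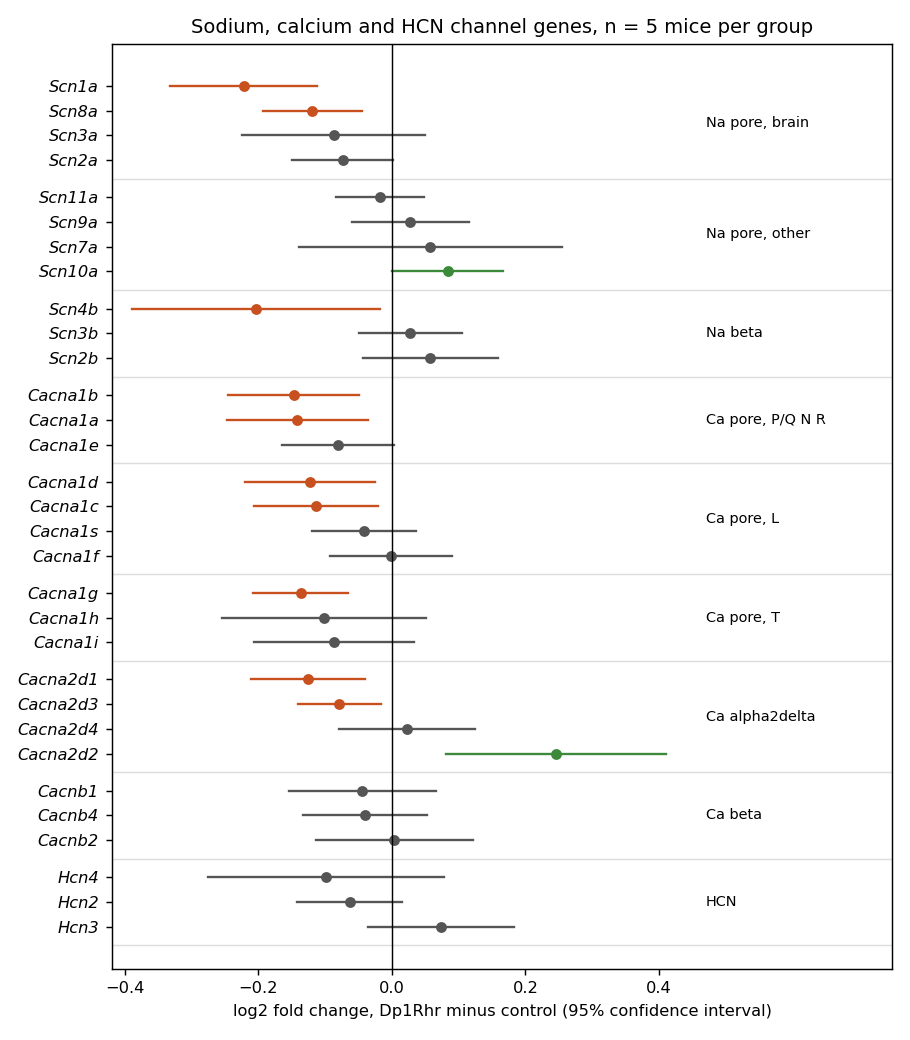
Log2 fold change of Dp1Rhr over control for the 31 channel genes by subunit class, with the 95% interval of limma as bars and 0 as the line of no difference, in orange (lower) or green (higher) where the unadjusted p-value was under 0.05 and in grey otherwise. The points run from -0.22 for Scn1a to 0.25 for Cacna2d2, and 22 of the 31 lie below 0.

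The direction differed between pores and auxiliary subunits in its counts. Of the 21 pore-forming genes, 17 had a lower mean in Dp1Rhr, with a median log2 fold change of -0.09, and 7 were lower and 1 higher at an unadjusted p-value under 0.05. Of the 10 auxiliary genes, 5 had a lower and 5 a higher mean, with a median of -0.02, and 3 were lower and 1 higher at that p-value. Over all genes 6.44% were lower and 8.55% higher at that p-value. No test of the difference between these classes was made. Among the 19 channel genes whose mean signal was above the 60th percentile of all genes (a log2 signal of 8.29), 16 had a lower mean in Dp1Rhr, with a median of -0.09. All 12 pore-forming genes of this signal range had a lower mean in Dp1Rhr (median -0.12), whereas 4 of the 7 auxiliary genes did (median -0.04). Of all 7976 genes above the 60th percentile, 4188 had a lower mean, with a median of -0.01. The 7 channel genes at or under the 40th percentile had 3 lower and 4 higher means and a median of 0.00.

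The sodium channel pores fell into those of central neurons (Scn1a, Scn2a, Scn3a and Scn8a) and the others. All 4 pores of central neurons had a lower mean in Dp1Rhr, with a median log2 fold change of -0.10, and none passed the adjusted test. Scn1a, the main sodium pore of inhibitory interneurons and a gene whose loss of function causes epilepsy, lies on chromosome 2 (66270781 to 66440837, RefSeq GRCm38.p6). In Dp1Rhr hippocampi Scn1a measured 9.12, 9.23, 9.13, 9.23 and 9.36, against 9.33, 9.53, 9.46, 9.44 and 9.42 in control hippocampi (replicates 1 to 5). Dp1Rhr replicates 1 to 4 lay below every control, and replicate 5 lay above the lowest control. The Scn1a means were 9.21 ± 0.098 in Dp1Rhr and 9.44 ± 0.071 in controls (SD, n = 5 each), a log2 fold change of -0.22 ± 0.05 (SE; 95% interval -0.33 to -0.11, a fold of 0.857), with an unadjusted p-value of 0.000867. Without Dp1Rhr replicate 5 the difference was -0.26 and its adjusted p-value 0.0247, which passes the threshold, so that for Scn1a this 1 array decides the call. An oligodendrocyte score was formed as the mean of the markers of that cell type, each first scaled over the 10 arrays. With that score in the model the Scn1a difference was -0.12 and its adjusted p-value 0.769. In that fit 0 of all genes passed the adjusted test, against 160 without the score. Markers of interneurons averaged 9.97 to 10.12 in the Dp1Rhr arrays and 9.83 to 10.07 in the control arrays (9 genes, median log2 fold change 0.04), and their part in the Scn1a result was not tested.

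Scn8a, the sodium pore of the axon initial segment and the nodes of Ranvier, had one of the brightest signals among the channel genes (94.7th percentile of all genes). In Dp1Rhr hippocampi Scn8a measured 10.95, 11.05, 11.08, 11.00 and 11.07, against 11.13, 11.21, 11.10, 11.13 and 11.18 in control hippocampi. All 5 Dp1Rhr arrays were below all 5 control arrays. The Scn8a difference was -0.12 ± 0.03 (SE; 95% interval -0.19 to -0.04), with an adjusted p-value of 0.119 in limma.

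Scn2a, the pore of the axons of excitatory neurons, gave the brightest signal of its class, at the 99.7th percentile. In Dp1Rhr hippocampi Scn2a measured 12.76, 12.71, 12.85, 12.76 and 12.74, against 12.89, 12.89, 12.80, 12.79 and 12.83 in control hippocampi. Only Dp1Rhr replicate 3 reached the range of the controls. The Scn2a difference was -0.07 ± 0.03 (SE; 95% interval -0.15 to 0.00), with an unadjusted p-value of 0.0526 and an adjusted p-value of 0.341. The array holds 14 probe sets annotated to Scn2a alone, with mean signals between 9.94 and 12.8. Of these, 13 had a lower mean in Dp1Rhr, 7 had an unadjusted p-value under 0.05, 0 separated the groups without overlap, and the log2 fold changes ran from -0.13 to 0.00 with a median of -0.10. The 14 read the same transcripts in the same 10 RNA samples and are not independent of each other.

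**Figure D2:**
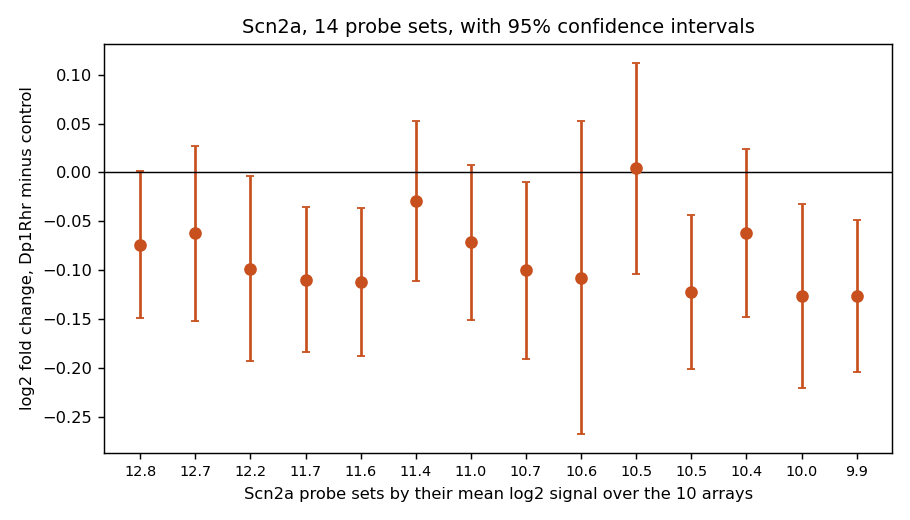
Log2 fold change of Dp1Rhr over control, with 95% intervals, for each of the 14 probe sets annotated to Scn2a alone. Of the 14, 13 lie below 0 and none is below -0.13.

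Scn3a, the sodium pore that predominates before birth, had 7.83, 7.96, 7.84, 7.72 and 7.92 in Dp1Rhr hippocampi, against 8.16, 7.81, 7.89, 7.93 and 7.91 in control hippocampi. The Scn3a groups overlapped, and the difference was -0.09 ± 0.06 (SE; 95% interval -0.22 to 0.05, adjusted p-value 0.585). It was -0.03 without control replicate 1, -0.05 without Dp1Rhr replicate 4 and -0.21 with the choroid plexus score, formed from scaled markers, in the model. Scn1a, Scn2a, Scn3a, Scn7a and Scn9a lie in 1 cluster of related genes on chromosome 2, and in that cluster the log2 fold changes were -0.22, -0.07, -0.09, 0.06 and 0.03 in this order. A further 3 probe sets carry several symbols including a channel gene and were not used. Whether the probe sets of these close relatives also bind each other's RNA was not tested.

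The other sodium pores are known from peripheral sensory neurons (Scn9a, Scn10a and Scn11a) or as a sodium sensor of glia (Scn7a), and all 4 were dim, at or under the 29.7th percentile. Of these, 3 had a higher and 1 a lower mean in Dp1Rhr, with a median of 0.04. In Dp1Rhr hippocampi Scn10a measured 5.40, 5.39, 5.51, 5.42 and 5.32, against 5.35, 5.33, 5.28, 5.38 and 5.29 in control hippocampi. Only Dp1Rhr replicate 5 lay within the control range, and the difference was 0.08 ± 0.04 (SE; 95% interval 0.00 to 0.17, unadjusted p-value 0.048, adjusted 0.328). The signal of Scn10a was at the 15.8th percentile of all genes. For Scn7a, Scn9a and Scn11a the differences were 0.06, 0.03 and -0.02, with adjusted p-values of 0.827 to 0.861.

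The sodium channel beta subunits are single-pass proteins that tie the pore to adhesion molecules and modify its gating. Scn4b, which promotes the resurgent sodium current that follows a spike, gave 7.70, 7.70, 7.97, 7.82 and 7.79 in Dp1Rhr hippocampi, against 7.85, 8.34, 7.98, 7.91 and 7.93 in control hippocampi. Only Dp1Rhr replicate 3 lay within the control range, while control replicate 2 stood far above the other controls. The Scn4b difference was -0.20 ± 0.09 (SE; 95% interval -0.39 to -0.02, unadjusted p-value 0.0344, adjusted 0.281). Without control replicate 2 the Scn4b difference was -0.12, with an adjusted p-value of 0.388. With the choroid plexus score in the model the Scn4b difference was -0.04. Scn2b, the neighbour of Scn4b on chromosome 9, had means of 11.14 in Dp1Rhr and 11.08 in controls, a difference of 0.06 ± 0.05 (adjusted p-value 0.634). Scn3b had means of 12.29 ± 0.021 in Dp1Rhr and 12.26 ± 0.071 in controls (SD, n = 5 each; adjusted p-value 0.802).

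All 10 calcium channel pores had a lower mean in Dp1Rhr, Cacna1f by so little that its log2 fold change rounds to 0.00. Their median was -0.11, and 5 of the 10 (50%) were lower at an unadjusted p-value under 0.05, against 6.44% of all genes. The share was higher among long genes as a class, as given below. None passed the adjusted test. The P/Q-, N- and R-type pores Cacna1a, Cacna1b and Cacna1e, which open at strong depolarization and drive transmitter release at terminals, had a median of -0.14. In Dp1Rhr hippocampi Cacna1b, the N-type pore, measured 10.18, 10.23, 10.11, 10.15 and 10.29, against 10.43, 10.40, 10.23, 10.35 and 10.30 in control hippocampi. Dp1Rhr replicate 5 alone lay within the Cacna1b control range, and Dp1Rhr replicate 2 lay just below it, equal to the lowest control to 2 decimals. The Cacna1b difference was -0.15 ± 0.04 (SE; 95% interval -0.25 to -0.05, adjusted p-value 0.139). In Dp1Rhr hippocampi Cacna1a, the P/Q-type pore, measured 10.57, 10.69, 10.78, 10.57 and 10.73, against 10.79, 10.91, 10.74, 10.78 and 10.84 in control hippocampi. For Cacna1a only Dp1Rhr replicate 3 reached the control range, and the difference was -0.14 ± 0.05 (SE; 95% interval -0.25 to -0.04, adjusted p-value 0.183). Cacna1e, the R-type pore, had means of 11.21 ± 0.072 in Dp1Rhr and 11.29 ± 0.043 in controls (SD, n = 5 each), a difference of -0.08 ± 0.04 (SE; adjusted p-value 0.359).

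The L-type pores carry the calcium current that links activity to gene expression. Cacna1c, the main L-type pore of brain and heart, gave 9.95, 10.04, 10.01, 9.97 and 10.07 in Dp1Rhr hippocampi, against 10.21, 10.18, 10, 10.16 and 10.07 in control hippocampi. The groups overlapped in Cacna1c through control replicates 3 and 5, and the difference was -0.11 ± 0.04 (SE; 95% interval -0.21 to -0.02, unadjusted p-value 0.0212, adjusted 0.228). Cacna1d, which opens at less depolarized voltages than Cacna1c and supports pacemaking, gave 8.45, 8.65, 8.62, 8.56 and 8.61 in Dp1Rhr hippocampi, against 8.71, 8.80, 8.68, 8.62 and 8.71 in control hippocampi. Control replicate 4 alone fell within the Dp1Rhr range of Cacna1d, and the difference was -0.12 ± 0.04 (SE; 95% interval -0.22 to -0.02, adjusted p-value 0.215). Cacna1s, the pore of skeletal muscle, and Cacna1f, the pore of the retina, were dim here, at percentiles 30.3 and 22 of all genes, with differences of -0.04 and 0.00.

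The T-type pores open near the resting potential and generate low-threshold bursts, above all in thalamic neurons. In Dp1Rhr hippocampi Cacna1g measured 8.96, 9.08, 8.99, 9.07 and 8.97, against 9.19, 9.14, 9.15, 9.13 and 9.14 in control hippocampi. The 5 controls spanned a narrow range, and every Dp1Rhr array was below it. The Cacna1g means were 9.02 ± 0.058 in Dp1Rhr and 9.15 ± 0.023 in controls (SD, n = 5 each), a difference of -0.14 ± 0.03 (SE; 95% interval -0.21 to -0.07, a fold of 0.91), with an unadjusted p-value of 0.00126 and an adjusted p-value of 0.0786. Cacna1h had means of 9.63 in Dp1Rhr and 9.73 in controls (-0.10 ± 0.07, adjusted p-value 0.559), and Cacna1i had means of 9.21 in Dp1Rhr and 9.29 in controls (-0.09 ± 0.05, adjusted p-value 0.519). Markers of thalamus, a source of T-type transcripts that adjoins the dissected tissue, averaged 8.45 to 8.78 over the Dp1Rhr arrays and 8.47 to 9.08 over the control arrays (10 genes, 5 with a lower and 5 with a higher mean, log2 fold changes from -0.86 to 0.71 with a median of -0.11). With the thalamus and habenula score in the model the Cacna1g difference was -0.16 (adjusted p-value 0.0732). That score pools the markers of both tissues, and a score of thalamus alone was not fitted. The part of thalamic tissue in the Cacna1g result was not tested.

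**Figure D3:**
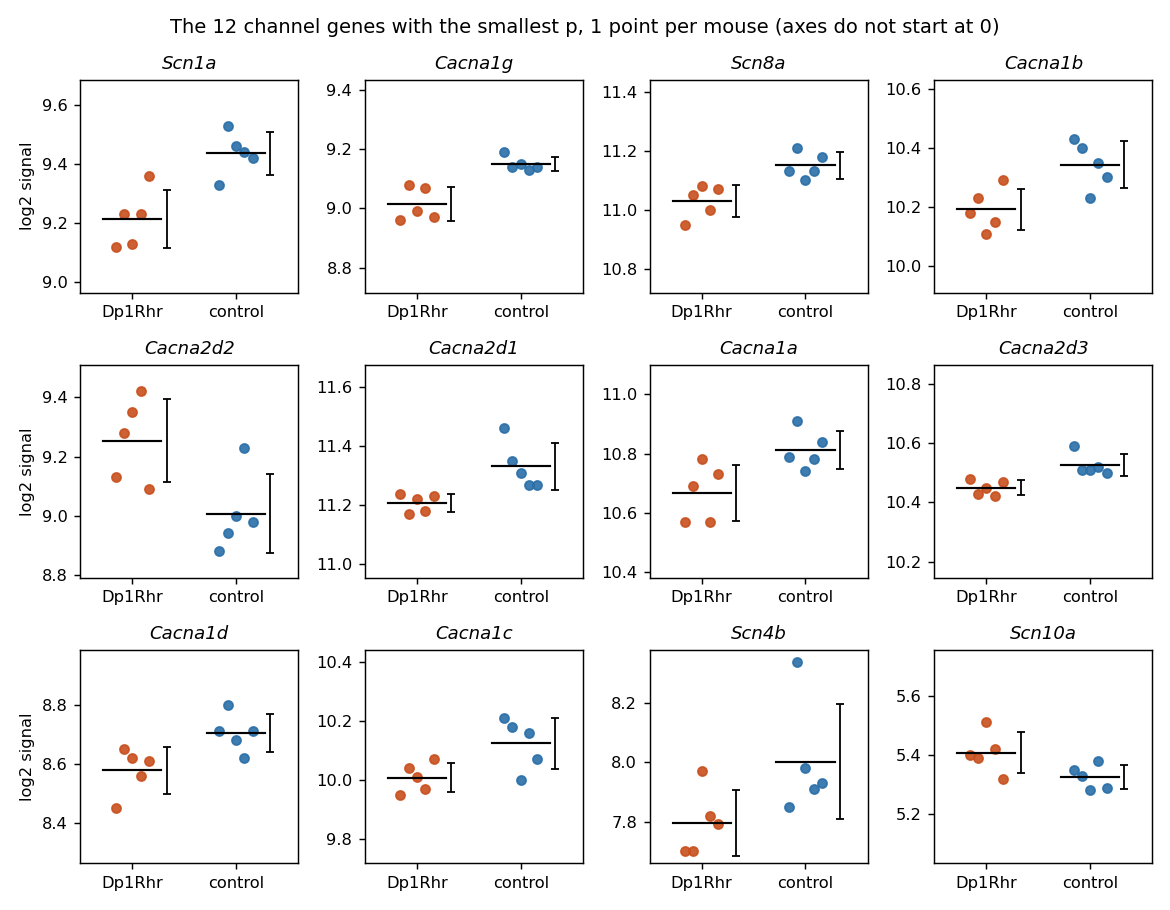
Log2 signal in each hippocampus of the 12 channel genes with the smallest p-values, with Dp1Rhr arrays left of control arrays in each panel, the group mean as a line, its SD (n = 5) as a bar, and axes that do not start at 0. In Cacna1g, Scn8a, Cacna2d1 and Cacna2d3 the 5 Dp1Rhr points lie below all 5 control points.

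The alpha2delta subunits sit on the outside of the calcium channel, carry it to the surface of the terminal and, in the case of Cacna2d1 and Cacna2d2, bind gabapentin. They did not share a direction: Cacna2d1 and Cacna2d3 had lower means in Dp1Rhr, Cacna2d2 and Cacna2d4 higher ones. In Dp1Rhr hippocampi Cacna2d1 measured 11.24, 11.17, 11.22, 11.18 and 11.23, against 11.46, 11.35, 11.31, 11.27 and 11.27 in control hippocampi. Every Dp1Rhr array was below every control array, and the difference was -0.13 ± 0.04 (SE; 95% interval -0.21 to -0.04, adjusted p-value 0.146). The dimmer probe set of Cacna2d1 gave -0.11 ± 0.04 with an unadjusted p-value of 0.0201, means of 10.67 in Dp1Rhr and 10.78 in controls, and overlapping groups. In Dp1Rhr hippocampi Cacna2d3 measured 10.48, 10.43, 10.45, 10.42 and 10.47, against 10.59, 10.51, 10.51, 10.52 and 10.50 in control hippocampi. These groups did not overlap either, with a smaller difference of -0.08 ± 0.03 (SE; 95% interval -0.14 to -0.02, adjusted p-value 0.213).

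Cacna2d2 was the channel gene with the highest fold change. In Dp1Rhr hippocampi Cacna2d2 measured 9.13, 9.28, 9.35, 9.42 and 9.09, against 8.88, 8.94, 9.0, 9.23 and 8.98 in control hippocampi. Dp1Rhr replicates 2, 3 and 4 were above every control, and control replicate 4 lay among the Dp1Rhr arrays. The means were 9.25 ± 0.14 in Dp1Rhr and 9.01 ± 0.13 in controls (SD, n = 5 each), a difference of 0.25 ± 0.08 (SE; 95% interval 0.08 to 0.41, a fold of 1.19), with an unadjusted p-value of 0.00692 and an adjusted p-value of 0.142. Markers of the habenula, which lies beside the hippocampus, averaged 6.76, 7.70, 7.33, 7.84 and 6.88 in the Dp1Rhr arrays, against 6.80, 6.83, 7.20, 6.78 and 6.77 in the control arrays (10 genes, all with a higher mean in Dp1Rhr, 4 of them dim). Among the Dp1Rhr arrays the 3 with the highest habenula mean also had the highest Cacna2d2 signal, whereas among controls the highest habenula mean was in replicate 3 and the highest Cacna2d2 signal in replicate 4. With the habenula score, formed from scaled markers, in the model the Cacna2d2 difference was 0.16 (adjusted p-value 0.456). In that fit 5 of all genes passed the adjusted test, against 160 without the score. With the thalamus and habenula score the Cacna2d2 difference was 0.21, and with the choroid plexus score it was 0.28. The habenula score was chosen after seeing the data and itself correlated with the group (0.5). The part of habenula tissue in the Cacna2d2 result was not tested. Cacna2d4, an alpha2delta subunit of the retina, differed by 0.02 ± 0.05 (adjusted p-value 0.889).

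The cytoplasmic beta subunits of calcium channels, which bind the pore and raise its opening and surface number, had 95% intervals that included 0. Cacnb4 differed by -0.04 ± 0.04 (SE; 95% interval -0.13 to 0.05), Cacnb1 by -0.04 ± 0.05 (-0.15 to 0.07) and Cacnb2 by 0.00 ± 0.05 (-0.11 to 0.12), with adjusted p-values of 0.744, 0.765 and 0.991. None of the 3 had an unadjusted p-value under 0.05, and Cacnb2 was dim, at the 31.8th percentile of all genes.

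Of the 3 HCN genes found, none had an unadjusted p-value under 0.05. Hcn2, a pacemaker channel of thalamic and hippocampal neurons that is opened further by cyclic AMP, gave 10.17, 10.14, 10.15, 10.01 and 10.15 in Dp1Rhr hippocampi, against 10.24, 10.16, 10.21, 10.19 and 10.15 in control hippocampi. Dp1Rhr replicate 4 stood below the other arrays, and the difference was -0.06 ± 0.04 (SE; 95% interval -0.14 to 0.02, adjusted p-value 0.463). Without that array it was -0.03 (adjusted p-value 0.739). Hcn4, the slow pacemaker channel of the sinus node and of thalamus, gave 6.94, 6.90, 7.09, 6.97 and 6.86 in Dp1Rhr hippocampi, against 7.31, 7.04, 7.04, 7.10 and 6.77 in control hippocampi. The Hcn4 controls spread over the whole Dp1Rhr range, and the difference was -0.10 ± 0.08 (SE; 95% interval -0.28 to 0.08, adjusted p-value 0.646). It was -0.03 without control replicate 1 and -0.17 without control replicate 5. Hcn3 had means of 7.42 in Dp1Rhr and 7.35 in controls (0.07 ± 0.05, adjusted p-value 0.559).

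Many channel genes are long, and long genes as a class had lower signals in these Dp1Rhr arrays. The limits of 100 kb and of the 60th percentile of signal were chosen after the values had been seen. Of 1429 genes longer than 100 kb and above the 60th percentile, 342 (23.9%) were lower and 57 (3.99%) higher at an unadjusted p-value under 0.05, with a median log2 fold change of -0.05 and a lower mean in 1064. Of the 13 channel genes among them, 8 (61.5%) were lower and 1 (7.69%) higher, with a median of -0.11. In steps of length, genes above the 60th percentile had a median of 0.03 under 10 kb (1639 genes, 5.06% lower) and of -0.05 over 200 kb (620 genes, 26.8% lower), with 21.8% lower between 100 and 200 kb. Signal moved the share as well: of all 7976 genes above the 60th percentile, 957 (12%) were lower, and without the limit on signal 14.8% of genes between 100 and 200 kb and 20.1% of those over 200 kb were lower, against 6.44% over all genes. Scn1a (170 kb), Scn8a (176 kb), Cacna1b (159 kb), Cacna1a (302 kb), Cacna2d1 (440 kb), Cacna1d (451 kb), Cacna1c (610 kb) and Cacna2d3 (818 kb) were the 8 long genes with lower signal. Cacna2d2 (130 kb) was the long gene with higher signal, while Cacna1g (66.0 kb) and Scn4b (15.5 kb) are shorter. What part length or signal has in these differences was not tested.

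**Figure D4:**
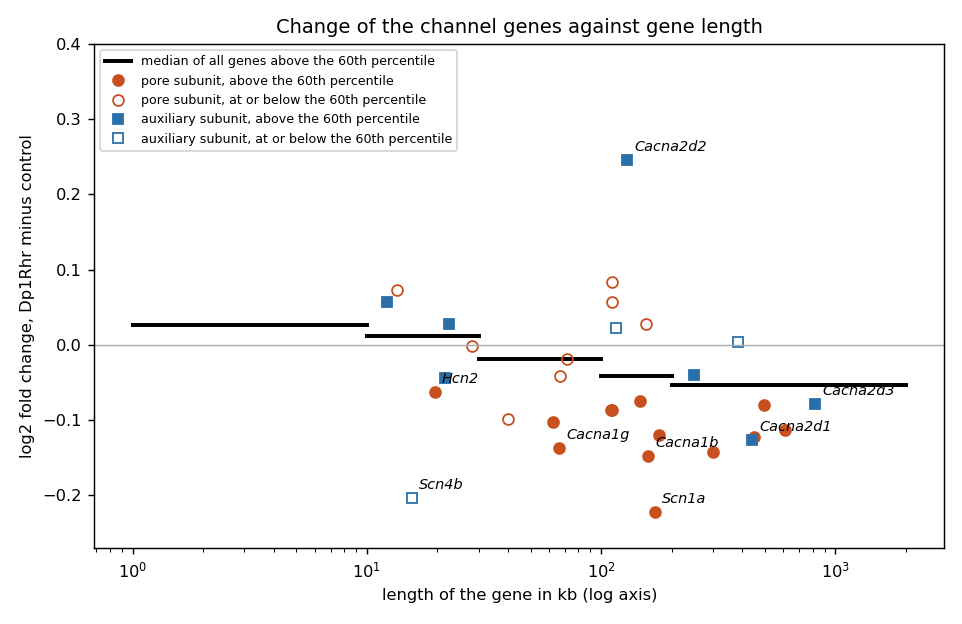
Log2 fold change of Dp1Rhr over control against gene length in kb (log axis) for the 31 channel genes, filled where their signal is above the 60th percentile of all genes. Horizontal lines give the median of all genes above that percentile within each step of length. The median runs from 0.03 under 10 kb to -0.05 over 200 kb, and 8 of the 13 channel genes above both 100 kb and that percentile were lower at an unadjusted p-value under 0.05.

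Proteins that anchor or regulate the channels, or are related to them, were taken from lists chosen with earlier results of these data known. They comprise 47 measured genes that the symbol rule does not match. The 7 measured genes of the calcium channel gamma family, described at the end, are counted among the 47. None of the 47 passed the adjusted test (adjusted p-values 0.102 to 0.999), 33 had a lower and 14 a higher mean in Dp1Rhr, and the median was -0.03. At an unadjusted p-value under 0.05, 10 (21.3%) were lower, against 6.44% of all genes and 23.9% of bright genes over 100 kb, and 2 (4.26%) were higher, against 8.55% of all genes. The partner genes were not chosen by length or signal, so that the share of bright genes over 100 kb comes from an unlike set. In 3 (6.38%: Ank2, Unc80 and Rims1) all Dp1Rhr arrays were below all control arrays, against 1.70% of all genes. The same held for 263 of the 7976 genes above the 60th percentile of signal, and for 111 of the 1429 of these over 100 kb. These 3 partner genes were all bright, at the 98.3rd, 96.8th and 89th percentile. Among 13 of the 15 listed sodium channel partners (median -0.04, 2 lower at that p-value), Ank2, an ankyrin that links membrane proteins to spectrin, gave 11.81, 11.90, 11.92, 11.85 and 11.95 in Dp1Rhr hippocampi, against 12.03, 12.08, 11.96, 12.01 and 11.97 in control hippocampi. The Ank2 difference was -0.12 ± 0.04 (SE, adjusted p-value 0.126). Ank3, the ankyrin that holds sodium channels at the axon initial segment, differed by -0.12 ± 0.04 (adjusted p-value 0.216), and Calm2, a calmodulin gene, by -0.06 ± 0.03 (adjusted p-value 0.34).

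The sodium leak channel, a relative that conducts at rest, was measured with 4 of 7 listed genes (median -0.06). Unc80, its large scaffold, gave 11.35, 11.50, 11.45, 11.42 and 11.51 in Dp1Rhr hippocampi, against 11.59, 11.71, 11.54, 11.54 and 11.59 in control hippocampi, with no overlap. The Unc80 difference was -0.15 ± 0.04 (SE, adjusted p-value 0.111), while Unc79 and the pore Nalcn had adjusted p-values of 0.394 and 0.652. Of 18 listed regulators and tethers of calcium channels 16 were measured (median -0.05). At an unadjusted p-value under 0.05, 6 of the 16 were lower, against 6.44% of all genes. Rims1, which ties calcium channels to the vesicle release site, gave 10.32, 10.37, 10.30, 10.34 and 10.40 in Dp1Rhr hippocampi, against 10.44, 10.44, 10.46, 10.46 and 10.43 in control hippocampi. The Rims1 groups did not overlap, with a difference of -0.10 ± 0.03 (SE, adjusted p-value 0.117). Rims2, its close relative, differed by -0.17 ± 0.05 (adjusted p-value 0.121), and Tspoap1, a binding protein of Rims proteins, by -0.25 ± 0.10 (adjusted p-value 0.243). Of 7 measured HCN partners among 11 listed (median 0.01), Pex5l, the subunit that carries HCN channels to distal dendrites, gave 10.07, 10.06, 10.09, 10 and 10.18 in Dp1Rhr hippocampi, against 10.29, 10.15, 10.21, 10.24 and 10.21 in control hippocampi. Dp1Rhr replicate 5 alone reached the control range of Pex5l, and the difference was -0.14 ± 0.04 (SE, adjusted p-value 0.102). Kcne2, which is also a choroid plexus marker, differed by 0.59 ± 0.25 (adjusted p-value 0.296), and Mrvi1 had an adjusted p-value of 0.766.

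Array medians lay between 6.77 and 6.83. Dyrk1a, inside the duplication, gave 11.97, 11.97, 12.06, 11.98 and 12.01 in Dp1Rhr hippocampi, against 11.80, 11.76, 11.70, 11.72 and 11.65 in control hippocampi (0.27 ± 0.03, adjusted p-value 0.011), and of 30 measured genes of the interval 14 rose and 0 fell. No channel gene lies on chromosome 16. All 8 pyramidal and all 10 granule cell markers of the hippocampus measured were above the 40th percentile. The pyramidal markers averaged 10.55 to 10.56 in Dp1Rhr arrays and 10.55 to 10.64 in control arrays, with a lower mean in Dp1Rhr for 7 of 8 and a median log2 fold change of -0.06, beside the -0.07 of the channel genes, and their part in the channel results was not tested. The granule cell markers had a lower mean in Dp1Rhr for 4 of 10 and a higher one for 6 (median 0.05), and 1 passed the adjusted test as higher. Pan-neuronal markers averaged 11.63 to 11.68 in Dp1Rhr arrays and 11.62 to 11.73 in control arrays, with a lower mean for 7 of 10 and a median of -0.02. Of 11 astrocyte markers 3 had a lower and 8 a higher mean (median 0.04), and 1 passed the adjusted test as lower. A higher mean in Dp1Rhr was found for 8 of 9 markers of meninges (median 0.13) and 6 of 7 of endothelium (median 0.12), none of them past the adjusted test. Of 6 blood markers 1 was measured, Alas2, an enzyme of heme synthesis in red blood cells, with 7.80 to 8.38 in Dp1Rhr arrays and 7.29 to 7.73 in control arrays (0.67, adjusted p-value 0.0304). Oligodendrocyte markers averaged 11.32, 11.28, 11.29, 11.19 and 11.14 in Dp1Rhr arrays, against 11.10, 11.08, 11.02, 11.10 and 11.17 in control arrays, and all 9 had a higher mean in Dp1Rhr. Choroid plexus markers averaged 8.87, 8.89, 8.45, 8.29 and 9.07 in Dp1Rhr arrays, against 8.71, 6.87, 7.05, 8.54 and 8.10 in control arrays, with 18 of 18 higher in mean and 0 of 18 past the adjusted test.

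Scores of some of these lists were put into the model as a covariate, in part after the data had been seen. A score is the mean of the markers of a list, each first scaled over the 10 arrays. With the oligodendrocyte score, 2 of the 31 channel genes (Cacna1g and Scn8a) were lower at an unadjusted p-value under 0.05, against 10 without it. The share of all genes lower at that p-value was 2.2%, against 6.44% without it. In that fit 21 of the 31 still had a lower mean and the median was -0.06. With the choroid plexus score 10 channel genes were lower, against 5.05% of all genes, and the median was -0.04. Among these 10, Cacna1h, Hcn2 and Scn3a took the place of Cacna1a, Cacna1d and Scn4b. With the pan-neuronal score 10 were lower, against 5.4% of all genes, and with the habenula score 7, against 5.14%. Over all genes 160 passed the adjusted test without a score. With the oligodendrocyte score 0 passed, with the choroid plexus score 7, with the habenula score 5 and with the pan-neuronal score 13. The scores themselves correlated with the group, a positive value meaning higher in Dp1Rhr. The correlations were 0.71 (oligodendrocyte), 0.62 (choroid plexus), 0.5 (habenula) and -0.37 (pan-neuronal). Such fits therefore cannot tell the scores apart from the genotype.

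**Figure D5:**
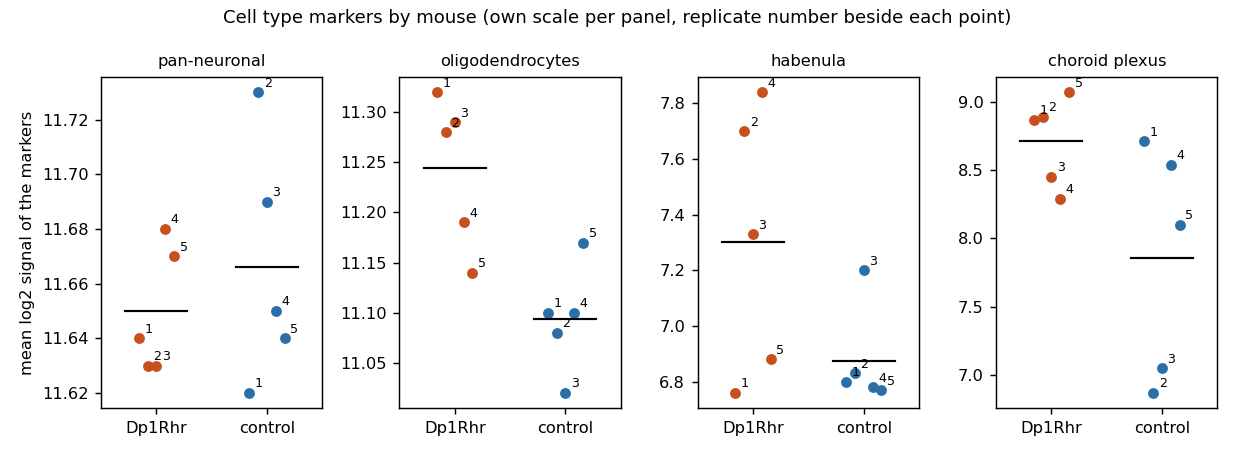
Mean log2 signal of the pan-neuronal, oligodendrocyte, habenula and choroid plexus markers in each hippocampus, 1 panel per list on its own scale, Dp1Rhr arrays left of control arrays, with the replicate number beside each point and group means as lines. The oligodendrocyte means run from 11.14 to 11.32 in Dp1Rhr and from 11.02 to 11.17 in control arrays.

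The rank-based method FCROS, with which the study itself tested genes, called 3 of the 31: Scn1a and Scn4b as lower, against 1.99% of all genes, and Cacna2d2 as higher, against 3.40% of all genes. It called 5 of the 47 partner genes, both directions counted, beside the same shares of all genes (1.99% lower and 3.40% higher).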

How the data were processed

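Total RNA of 10 hippocampi (5 Dp1Rhr, 5 control) was hybridised to arrays. The deposited log2 values were made by the authors with RMA, and the submitters' notes also name limma and mm10, without versions. Of 35556 probe sets, 21789 were annotated to 1 symbol, 1621 to several and 12146 were not listed. Each of 19938 genes was represented by its brightest probe set. Groups were compared with limma 3.58.1 in R 4.3.3 (lmFit and eBayes, two-sided, Benjamini-Hochberg adjustment over all genes, threshold 0.05), whose script was tested on simulated data. Coordinates, lengths and promoters came from RefSeq (GRCm38.p6). Array values are given for the 12 channel genes with the smallest p-values, for the brain sodium pores, Hcn2 and Hcn4, and for the leading partners, up to 3 per list being named. The channel genes and all lists were chosen with earlier results of these data known. Alternatives were FCROS (trim 0.25, limits 0.025 and 0.975), each array left out, array weights, a filter on dim genes, a replicate block and cell-type covariates. The number of arrays limits the precision. The study's methods give C57BL/6J, where the labels give C57BL/6N.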

Additional observations from a re-analysis of the deposited data

Results flagged for a closer look

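In each group of 5 arrays the highest and the lowest value of every channel gene were compared with the rest by Dixon's ratio, and 5 of 62 gene and group pairs held an array that stood apart, where 3.1 would be flagged by chance. Hcn2 was 10.01 in Dp1Rhr replicate 4, and the other 4 Dp1Rhr arrays lay between 10.14 and 10.17. Scn4b was 8.34 in control replicate 2, and the other controls lay between 7.85 and 7.98. Cacna2d3 was 10.59 in control replicate 1, and the other controls lay between 10.50 and 10.52. Scn7a was 5.74 in control replicate 5, against 6.14 to 6.28 in the other controls, and Scn11a was 5.50 in Dp1Rhr replicate 4, against 5.56 to 5.58 in the other Dp1Rhr arrays. Both of these genes were dim.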

How the results depend on the processing

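Under the alternatives no channel gene named by array reversed its direction, and only Scn1a crossed the threshold of the adjusted test, without Dp1Rhr replicate 5. The count of channel genes called was 3 with FCROS, against 0 with limma, and between 0 and 1 when single arrays were left out. The count of partner genes called was 5 with FCROS, which called 1.99% of all genes as lower and 3.40% as higher. Channel genes lower at an unadjusted p-value under 0.05 numbered 10, between 8 and 12 when single arrays were left out, and 2 with the oligodendrocyte covariate. Those higher at that p-value numbered 2, between 1 and 2 when single arrays were left out, 1 with array weights, without genes below the 40th percentile, with the thalamus and habenula, the oligodendrocyte or the pan-neuronal covariate, and 0 with the habenula covariate. The median log2 fold change ran from -0.084 to -0.053 when single arrays were left out and was -0.037 with the choroid plexus covariate. The deviations of same-numbered arrays from their group means had correlations of 0.12, -0.33, -0.34, -0.08 and 0.07. Unlike-numbered arrays were not compared, so that these values cannot settle whether the numbers pair the mice. With the replicate number as a block, 1 channel gene was higher at an unadjusted p-value under 0.05, and the other counts moved by less than 1.5 times. The oligodendrocyte, habenula and pan-neuronal covariates were chosen after seeing the data. The cause of these shifts was not tested. Scn10a could not be given under the filter on dim genes.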

Other observations

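The gamma family of the calcium channel, whose Cacng symbols the rule does not match, holds both a true subunit of the muscle calcium channel and proteins that carry AMPA-type glutamate receptors to the synapse. Of 8 listed genes 7 were measured, and these are counted among the 47 partner genes above. Their median log2 fold change of Dp1Rhr over control was 0.01, and none passed limma's adjusted test. At an unadjusted p-value under 0.05, 0 of the 7 were lower, against 6.44% of all genes. At that p-value 1 was higher, against 8.55% of all genes. Cacng5 differed by 0.31 ± 0.12 (SE, adjusted p-value 0.238), Cacng4 had an adjusted p-value of 0.38 and Cacng8 one of 0.457.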
